A study of Mus musculus with 11 samples.

Results

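The genes examined here are 36 genes of protein folding and quality control in the endoplasmic reticulum (ER). They were chosen by gene name, with earlier results of these data known. They comprise 11 ER chaperones and co-chaperones, 7 enzymes of disulfide formation and isomerisation, 12 genes of ER-associated degradation (ERAD), and 6 sensors and transcription factors of the unfolded protein response (UPR). All 36 were found among the 54532 genes of the pancreas table and among the 46078 genes of the adipose table. RNA sequencing counts were available for mice with obesity-related alcohol-induced acute pancreatitis (OA-AP) and for controls, with 2 control and 3 OA-AP libraries of pancreas and 3 of each group of fat from around the epididymis. All mice were wild type C57BL/6 (C57BL/6J in the study's methods) of 16 weeks. Control mice ate chow with 10 kcal% fat for 12 weeks and received saline, whereas OA-AP mice, labelled Model, ate a diet with 60 kcal% fat for 12 weeks and received ethanol at 2 g/kg. Both received 2 intraperitoneal injections 1 h apart, and tissue was taken 12 h after the first of them. The effects of the diet and of ethanol cannot be told apart in these groups. The labels do not say whether pancreas and adipose samples of the same number came from 1 mouse.

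Proteins destined for secretion fold in the ER with the help of chaperones, and their disulfide bonds are formed and reshuffled by the protein disulfide isomerases. Proteins that fail to fold are recognised by lectins, moved back to the cytosol and degraded, which is the task of ERAD. When unfolded proteins accumulate, the sensors Ern1 (IRE1), Eif2ak3 (PERK) and Atf6 start the UPR, in which Ern1 splices the Xbp1 mRNA, and Xbp1 and Atf6 raise the transcription of chaperone and ERAD genes. The acinar cell of the pancreas has one of the highest rates of secretory protein synthesis in the body and a correspondingly large ER. Adipocytes secrete adipokines, and ER stress has long been described in the fat of obese animals.

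Xbp1 and Atf6 act through the ER stress response element (ERSE), which reads CCAAT, then 9 bases of any kind, then CCACG, and through ERSE-II, which reads ATTGG, 1 base of any kind, then CCACG. Promoters of 31 of the 36 genes, from 250 bases before to 50 after the start site, were matched by symbol in the RefSeq promoter table (build GRCm38.p6); Hyou1, Manf, Derl1, Atf6 and Creb3l1 were not matched. An ERSE on either strand stood in 9 of these 31 genes (29.0%) and in 37 of all 27025 genes of the table (0.137%). An ERSE-II stood in 2 of the 31 (6.45%) and in 12 of all genes (0.0444%). The following matches are shown because they belong to the genes whose values carry the results below, with the element in capitals, 5′ to 3′ on the strand of the gene.
Hspa5, chr2:34772020-34772048, + strand: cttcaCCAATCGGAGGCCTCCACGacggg
Dnajc3, chr14:118937822-118937850, + strand: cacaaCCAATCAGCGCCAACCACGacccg
Creld2, chr15:88819515-88819543, + strand: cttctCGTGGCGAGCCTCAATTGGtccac
Derl3, chr10:75893237-75893265, + strand: tctacCGTGGGACTTCCCCATTGGctagc
Dnajb11, chr16:22857847-22857867, + strand: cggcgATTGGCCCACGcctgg
Herpud1, chr8:94386372-94386392, + strand: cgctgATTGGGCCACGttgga
In Hspa5 the ERSE began 65 bases before the start site, in Dnajc3 105, in Creld2 126 and in Derl3 156. The elements of Creld2 and Derl3 lie in the reverse orientation and therefore begin with CGTGG. The ERSE-II of Herpud1 began 52 bases before the start site and that of Dnajb11 7 bases after it. The other genes with an ERSE were Hsp90b1, which had 2, and Calr, Canx, Pdia6 and Syvn1.

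The last letters of both elements, CCACG, stood alone or within them in 26 of the 31 promoters (83.9%) and in 35.5% of all genes. The Xbp1/Atf6 element TGACGTGG was found in Vcp alone (3.23%, against 0.714% of all genes). The core TGACGT, which that element contains, was found in Hspa5, Dnajb11, Canx, Vcp and Creb3l2 (16.1%, against 8.37%). The Atf4/Chop element TGATGNAAT was in 0 of the 31 and in 1.08% of all genes. Each motif was searched on both strands, and a match describes the letters only.

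The libraries held 14188832 to 17238919 counts in the pancreas and 20825177 to 27928097 in adipose tissue. Adipocyte markers were abundant in the adipose libraries (Adipoq 2525 to 3752 CPM, that is, counts per 1e6 of the scaled library) and digestive enzyme genes in the pancreas. A list of 46 genes of acinar secretory proteins was used, of which Spink3 and Ctrb2 were not found. In the pancreas these genes took 80.8% and 82.6% of the counts of the control libraries and 62.2% to 65.1% of the OA-AP libraries. OA-AP replicate 3 of the pancreas stood apart from the other OA-AP libraries, with a chi-square per degree of freedom of 53.2 and 60.2 against each of them, where those 2 differed by 13.8. Control replicate 2 of adipose tissue held acinar RNA. The same acinar secretory genes took 1.10% of its counts and at most 0.00204% in the other adipose libraries. Counts of DEGs, and values of several genes that rest on either library, are also given without it.

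**Figure D1:**
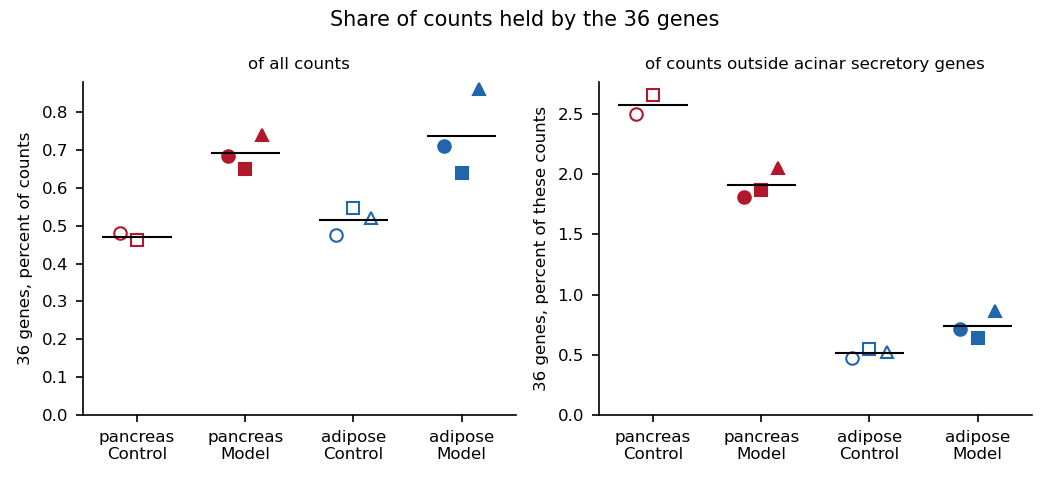
Percent of all counts (left) and percent of counts outside the acinar secretory genes (right) held by the 36 genes in each library. Points are libraries, with replicate 1 as circle, 2 as square and 3 as triangle, and lines are group means; the share of all counts was higher in OA-AP in both tissues, but in the pancreas the share of counts outside acinar secretory genes was lower.

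Together the 36 genes took 0.471% ± 0.0125 (SD, n = 2) of the counts of control pancreas and 0.691% ± 0.0460 (n = 3) of OA-AP pancreas. Of the counts that remain when the acinar secretory genes are left out, the share went the other way, from 2.58% ± 0.116 to 1.91% ± 0.127. In adipose tissue the share of all counts was 0.514% ± 0.0353 in control and 0.737% ± 0.113 in OA-AP mice (n = 3 each). The groups did not overlap in any of these 3 shares, as the plot of shares by library shows. Thus the direction in the pancreas depends on what the genes are measured against, and every pancreas value below is given on the TMM scale, which centres most genes near no change. Scaled by library totals alone, the median change over all pancreas genes tested moved from 0.04 to 0.75 on the log2 scale, and that of the 36 genes from −0.33 to 0.38. The distance of the 36 genes below the median of all genes was −0.37 on either scale. In bulk tissue, fewer cells of a type and less RNA per cell cannot be told apart.

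DEGs were genes with an adjusted p under 0.05 (edgeR's quasi-likelihood test, Benjamini-Hochberg over all tested genes) and a fold change of at least 1.5. In the pancreas 3 of the 36 genes rose (Eif2ak3, Xbp1 and Edem3) and 12 fell, which is 41.7% of them, where 29.8% of all 12884 tested genes were DEGs (16.2% higher, 13.5% lower). In adipose tissue 35 of the 36 passed the filter on low counts, of which 15 rose and 0 fell (42.9%), where 25.1% of all 15839 tested genes were DEGs (12.1% higher, 13% lower). At an unadjusted p under 0.05 without a fold threshold, 44.8% of pancreas genes and 47.4% of adipose genes passed. The median log2 fold change of the 36 genes was −0.33 in the pancreas and 0.44 in adipose tissue, beside −0.01 over all adipose genes. Under library totals alone the pancreas calls were 9 higher (Hspa5, Hsp90b1, Pdia3, Edem3, Os9, Ern1, Eif2ak3, Xbp1 and Creb3l2) and 5 lower (Creld2, Pdia2, Derl3, Selenos and Creb3l1), so Eif2ak3, Xbp1 and Edem3 were higher and these 5 lower under both scalings. The same change of scaling moved the calls over all pancreas genes from 2090 higher and 1744 lower to 5843 higher and 506 lower. In adipose tissue library totals alone gave 10 of the 36 genes higher and 0 lower, and over all genes 1365 higher and 2885 lower instead of 1915 and 2066. The 3 negative adipose values, of Derl1, Derl3 and Edem1, had unadjusted p-values of 0.165, 0.555 and 0.813 by edgeR, and DESeq2 also called 15 higher and 0 lower. Without OA-AP replicate 3 of the pancreas 4 genes were higher and 15 lower there, and without control replicate 2 of adipose tissue 13 were higher and 0 lower. The counts fell furthest without control replicate 2 of the pancreas, to 0 higher and 9 lower, and without OA-AP replicate 3 of adipose tissue, to 9 higher and 0 lower. Without control replicate 1 of the pancreas 1 gene was higher and 10 lower, and without control replicate 3 of adipose tissue 10 were higher. Over all genes the calls also fell without either pancreas control, which left 1 control. Without OA-AP replicate 3 of the pancreas they were 2123 higher and 2142 lower. In adipose tissue they were 1606 higher and 1437 lower without OA-AP replicate 3. They were 1557 higher and 1308 lower there without control replicate 3, and 1835 and 1729 without control replicate 2. The labels do not say that the samples of a group came from separate animals. The p-values therefore measure the spread between these samples only.

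**Figure D2:**
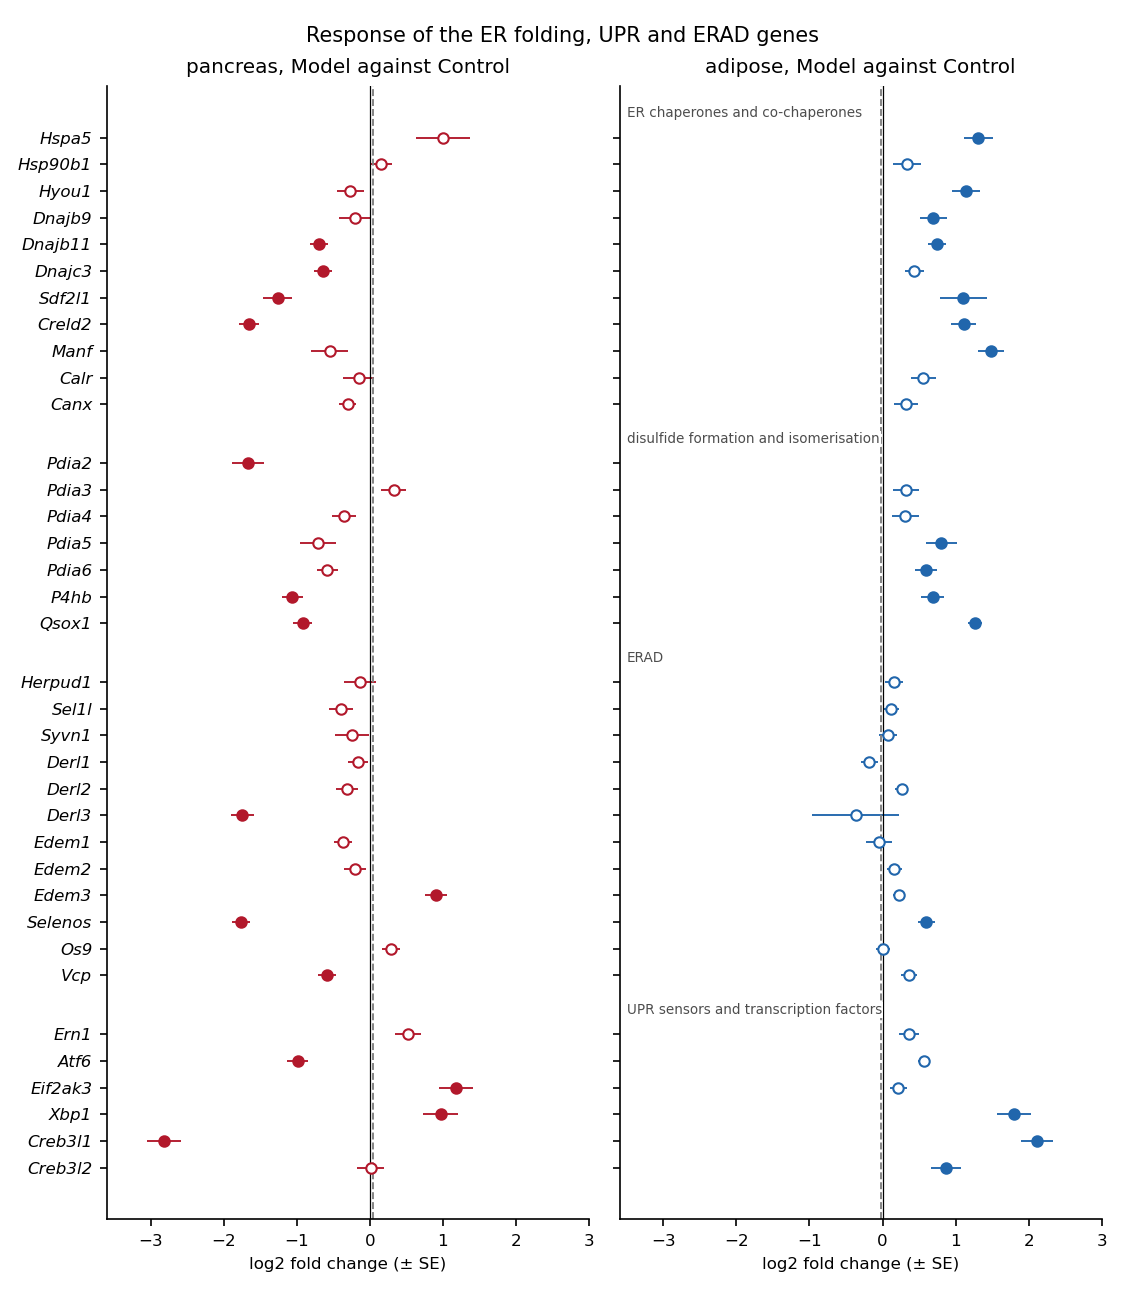
Log2 fold change (± SE) of each gene between OA-AP and control, in the pancreas (left, TMM scaling) and in adipose tissue (right), grouped by role. Filled points are DEGs, the dashed line is the median of all tested genes; 12 filled points lie below 0 and 3 above in the pancreas, and all 15 filled points lie above 0 in adipose tissue. With library totals alone 27 of the 36 pancreas values lie above 0.

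Among the sensors and transcription factors the pancreas and adipose tissue shared a higher level of Xbp1 mRNA, whose spliced form encodes the main activator of the UPR. In the pancreas Xbp1 was at 408 and 390.0 CPM in the controls and at 667, 620.1 and 1056 CPM in OA-AP mice. In adipose tissue it was at 245, 322 and 341 CPM in the controls and at 1290.4, 746 and 1117 CPM in OA-AP mice. The groups did not overlap in either tissue, and all OA-AP libraries were higher. This was a log2 fold change of 0.97 ± 0.24 (SE, adjusted p = 0.0183) in the pancreas and 1.80 ± 0.23 (adjusted p = 0.00198) in adipose tissue, a fold of 1.96 and 3.47. Gene counts do not separate spliced from unspliced Xbp1. Without OA-AP replicate 3, its highest pancreas library, Xbp1 was still called in the pancreas. Leaving out each pancreas library in turn gave log2 fold changes of 0.64 to 1.11. The pancreas call was lost without control replicate 1 (1.01, adjusted p = 0.119) or 2 (0.94, adjusted p = 0.144), each of which left 1 control.

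Eif2ak3, the kinase that slows translation in ER stress, rose in the pancreas, from 68.2 and 74.98 CPM to 134, 135 and 217 CPM, and its groups did not overlap. Its log2 fold change was 1.18 ± 0.23 (adjusted p = 0.00726). Without OA-AP replicate 3, its highest library, Eif2ak3 was still called. Leaving out each pancreas library in turn gave log2 fold changes of 0.87 to 1.29. Without control replicate 1 the value was 1.12 (adjusted p = 0.0848) and without replicate 2 it was 1.25 (adjusted p = 0.0705). In adipose tissue Eif2ak3 was at 26.1, 23.5 and 20.8 CPM in the controls and 27.0, 25.0 and 29.9 CPM in OA-AP mice, groups that overlapped (log2 fold change 0.22 ± 0.12, adjusted p = 0.189). Ern1, the kinase and nuclease that splices Xbp1, did not pass in either tissue. It was at 34.6 and 43.2 CPM in control and 59.5, 62.5 and 45.4 CPM in OA-AP pancreas (0.52 ± 0.18, adjusted p = 0.0565), where all OA-AP libraries lay above the controls. Without OA-AP replicate 3, the lowest of them, Ern1 passed (0.60, adjusted p = 0.00148). In adipose tissue Ern1 was at 28.5, 30.9 and 32.5 CPM in the controls and 46.2, 32.4 and 39.0 CPM in OA-AP mice, where the groups overlapped (0.36 ± 0.14, adjusted p = 0.0785).

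Atf6, the sensor that is cleaved in the Golgi to a transcription factor, fell in the pancreas. Its levels were 69.8 and 70.0 CPM in the controls and 30.4, 38.1 and 37.2 CPM in OA-AP mice, a gap wider than the spread within either group. On the log2 scale it changed by −0.99 ± 0.14 (adjusted p = 0.0017), and with library totals alone it was −0.28 (adjusted p = 0.153) and no longer passed. In adipose tissue Atf6 was at 74.0, 71.2 and 69.4 CPM in the controls and 103, 104 and 111 CPM in OA-AP mice, again without overlap but higher. The adipose log2 fold change of 0.57 ± 0.08 had an adjusted p of 0.00261 but a fold of 1.48, just under the threshold. It reached the fold threshold without control replicate 1 (0.61), OA-AP replicate 1 (0.60) or OA-AP replicate 2 (0.59).

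Creb3l1, an ER-anchored relative of Atf6 known for driving secretory and collagen genes, had the widest gap between tissues of all 36 genes. In the pancreas it was at 29.7 and 32.8 CPM in the controls and at 3.67, 6.01 and 3.61 CPM in OA-AP mice. In adipose tissue it was at 26.9, 27.6 and 31.0 CPM in the controls and at 118, 90.1 and 164 CPM in OA-AP mice. Neither tissue had overlapping groups, and the directions were opposite. The log2 fold change was −2.82 ± 0.23 (adjusted p = 0.000192) in the pancreas, 7.06-fold lower, and −2.10 with library totals alone. It was 2.12 ± 0.22 (adjusted p = 0.00101) in adipose tissue, 4.34-fold higher. Creb3l2, its closest relative here, differed by 0.01 ± 0.19 on the log2 scale in the pancreas (adjusted p = 0.973) and rose in adipose tissue from 91.3, 104 and 88.2 CPM to 176, 121 and 218 CPM. That adipose change of 0.86 ± 0.21 (adjusted p = 0.0175) lost its call without control replicate 1 (adjusted p = 0.0559) or control replicate 3 (adjusted p = 0.0613).

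**Figure D3:**
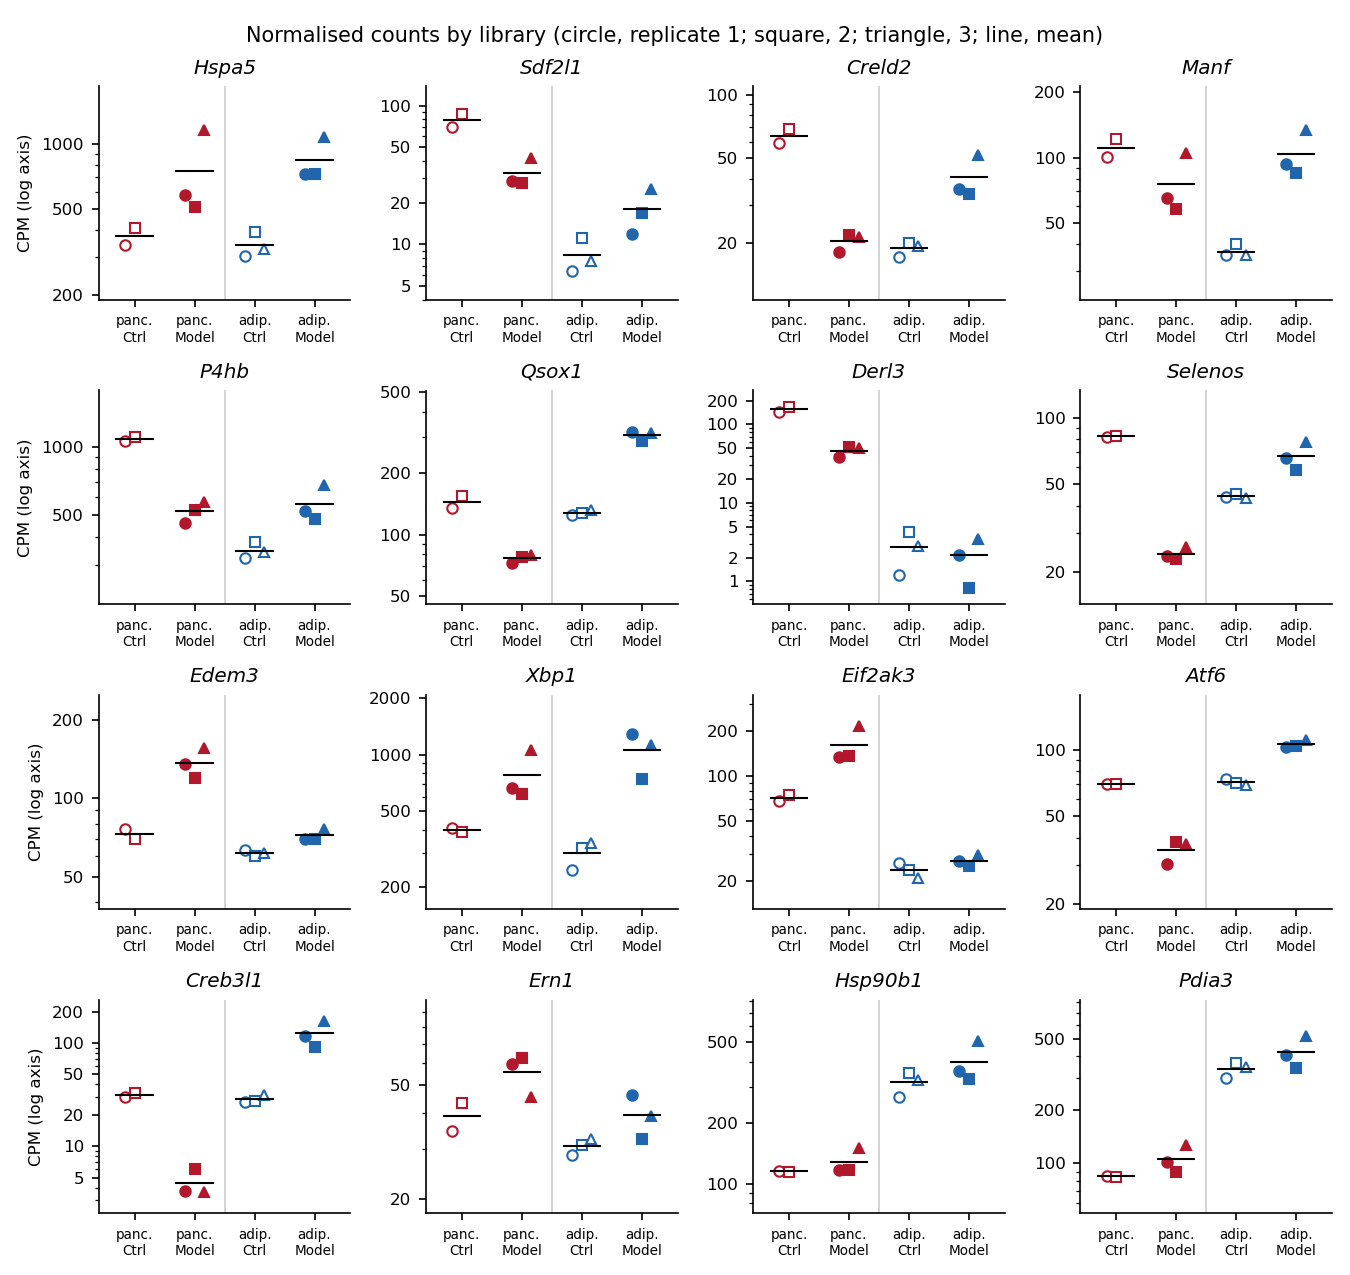
Normalised counts (CPM, log axis, scaled within each tissue) of 16 of the genes in every library, with pancreas in red and adipose tissue in blue. Open symbols are controls, filled symbols OA-AP, the shape gives the replicate number and the line the group mean; Creb3l1 moved in opposite directions in the 2 tissues and Xbp1 was higher in OA-AP in both. Levels are not comparable between the tissues on this axis.

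Of the 11 chaperones and co-chaperones, 0 rose and 4 fell in the pancreas (median log2 fold change −0.30), while 7 rose and 0 fell in adipose tissue (median 0.74). That was 36.4% and 63.6% called, where 29.8% and 25.1% of all tested genes were. Hspa5 (BiP), the central Hsp70 chaperone of the ER, was at 341 and 409 CPM in control pancreas and 579, 510.1 and 1161 CPM in OA-AP pancreas. All OA-AP libraries lay above the controls, with replicate 3 far above the rest, and that library also held the highest Xbp1, Eif2ak3, Manf and Hyou1 of the OA-AP group. The log2 fold change of 1.00 ± 0.37 did not pass (unadjusted p = 0.0335, adjusted p = 0.0825). Without OA-AP replicate 3 it was 0.49 (adjusted p = 0.00588) with a fold under 1.5, whereas without OA-AP replicate 2 it passed (1.21, adjusted p = 0.0273). It also passed with the DESeq2 test (1.01, adjusted p = 0.00993), with no filter on low counts (1.07, adjusted p = 0.0430) and with library totals alone (1.68, adjusted p = 0.00347). In adipose tissue Hspa5 rose, from 303, 389 and 327 CPM to 724, 722 and 1078 CPM, with no overlap (log2 fold change 1.31 ± 0.20, adjusted p = 0.00319).

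Creld2, Sdf2l1 and Dnajb11 fell in the pancreas and rose in adipose tissue. Creld2, a disulfide-handling protein strongly induced by ER stress, was at 59.0 and 68.7 CPM in control and 18.0, 21.6 and 21.2 CPM in OA-AP pancreas (−1.65 ± 0.14, adjusted p = 0.000238). In adipose tissue Creld2 went from 17.2, 19.999 and 19.3 CPM to 35.9, 34.0 and 52.1 CPM (1.11 ± 0.17, adjusted p = 0.00368). Sdf2l1, a partner of Hspa5 and its J-domain helpers, was at 70.6 and 86.4 CPM in control and 28.5, 27.9 and 41.8 CPM in OA-AP pancreas. Its log2 fold change there was −1.26 ± 0.20 (adjusted p = 0.00293), and with library totals alone −0.56 with a fold under 1.5. The adipose rise of Sdf2l1, 1.10 ± 0.32 (adjusted p = 0.035), was not called without control replicate 1 (0.95, adjusted p = 0.101), control replicate 3 (1.05, adjusted p = 0.106), OA-AP replicate 2 (1.16, adjusted p = 0.0585) or OA-AP replicate 3 (0.78, adjusted p = 0.0883).

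Dnajb11 (ERdj3), a J-domain co-chaperone of Hspa5, was at 90.0 and 97.0 CPM in control pancreas and 58.7, 54.1 and 60.2 CPM in OA-AP pancreas. The change of −0.70 ± 0.12 (adjusted p = 0.00433) became 0.02 with library totals alone, and was not called without control replicate 2 (−0.64, adjusted p = 0.0659). Dnajc3 (p58IPK), an inhibitor of Eif2ak3 and a J-domain co-chaperone, also fell (−0.64 ± 0.13, adjusted p = 0.0071), a change of 0.07 with library totals alone. Without control replicate 1 its adjusted p was 0.0607 and without control replicate 2 it was 0.0938. So the pancreas falls of Dnajb11 and Dnajc3 were relative to the other genes of the library and turned direction when counts were scaled by totals.

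In adipose tissue Manf, a small ER protein that is secreted under stress, showed the largest fold of the chaperone group. Its level went from 35.5, 39.9 and 35.5 CPM in the controls to 93.3, 84.6 and 133 CPM in OA-AP mice, with no overlap. Its log2 fold change was 1.49 ± 0.18 (adjusted p = 0.00154). In the pancreas Manf did not pass (−0.55 ± 0.26, adjusted p = 0.138), with 105 CPM in OA-AP replicate 3 and 64.9 and 57.9 CPM in the others, and passed as lower without that library (−0.90, adjusted p = 3.67e-05). Hyou1 (Grp170), which recharges Hspa5 with ATP, rose in adipose tissue (1.14 ± 0.19, adjusted p = 0.00452), and so did Dnajb11 (0.74 ± 0.12, adjusted p = 0.00442) and Dnajb9 (0.70 ± 0.18, adjusted p = 0.0229). The call of Dnajb9 was lost when control replicate 1 (adjusted p = 0.0712), control replicate 2 (0.0600), OA-AP replicate 1 (0.0553) or OA-AP replicate 3 (0.0614) was left out. Hsp90b1 (Grp94), Canx and Calr passed in neither tissue. On the log2 scale Hsp90b1 was at 0.15 ± 0.15 in the pancreas and 0.33 ± 0.19 in adipose tissue. Canx was at −0.30 ± 0.12 and 0.33 ± 0.16, and Calr at −0.15 ± 0.21 and 0.56 ± 0.18. Calr passed in adipose tissue without OA-AP replicate 2 (0.68, adjusted p = 0.0197).

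Of the 7 disulfide enzymes, 3 fell and 0 rose in the pancreas, and 4 of 6 tested rose and 0 fell in adipose tissue. That was 42.9% and 66.7% called, where 29.8% and 25.1% of all tested genes were. P4hb (protein disulfide isomerase, also a subunit of collagen prolyl hydroxylase) was at 1056 and 1108 CPM in control pancreas and at 462, 528 and 568 CPM in OA-AP pancreas. Every OA-AP library was below the controls. The log2 fold change was −1.06 ± 0.14 (adjusted p = 0.00138), and −0.35 with library totals alone, where the fold no longer reached 1.5. In adipose tissue P4hb went from 322, 379 and 343 CPM to 522, 482 and 676 CPM (0.69 ± 0.16, adjusted p = 0.014). That call was lost without control replicate 3 (0.69, adjusted p = 0.05001) and without OA-AP replicate 3 (0.53, adjusted p = 0.0370, fold under 1.5).

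Pdia2, an isomerase known for its expression in the pancreas, was at 9.95 and 11.8 CPM in control and 2.89, 3.43 and 3.92 CPM in OA-AP pancreas, with no overlap. Its log2 fold change of −1.67 ± 0.22 (adjusted p = 0.00125) was −0.96 with library totals alone. In adipose tissue Pdia2 had 7 counts in control replicate 2, the library with acinar RNA, and 0 in the other 5, so it was not tested there. Qsox1, a sulfhydryl oxidase of the Golgi and of secretions, fell in the pancreas from 135 and 155 CPM to 72.9, 77.3 and 79.7 CPM (−0.92 ± 0.13, adjusted p = 0.00146). It was not called with library totals alone (−0.21, adjusted p = 0.233). In adipose tissue Qsox1 rose from 124.5, 128 and 131 CPM to 318, 287 and 316 CPM, a tight shift of 1.26 ± 0.10 on the log2 scale (adjusted p = 0.000402).

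Pdia6, a partner of Hspa5, rose in adipose tissue from 136, 177 and 155 CPM to 218, 211 and 277 CPM (0.59 ± 0.15, adjusted p = 0.0198), with a fold of 1.51. That call was lost without control replicate 1 (adjusted p = 0.0623), control replicate 3 (0.0618) or OA-AP replicate 3 (0.0597). Pdia5 rose there by 0.80 ± 0.21 (adjusted p = 0.0239), which was not called without control replicate 1 (0.0604), control replicate 2 (0.0689), control replicate 3 (0.0640) or OA-AP replicate 3 (0.0557). In the pancreas Pdia6 was at −0.58 ± 0.15 (adjusted p = 0.0174), just under a fold of 1.5, and Pdia5 at −0.71 ± 0.24 (adjusted p = 0.055); both were called lower without OA-AP replicate 3, at −0.74 (Pdia6) and −0.69 (Pdia5). Pdia3 and Pdia4, which act on glycoproteins and other secretory proteins, passed in neither tissue.

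Of the 12 ERAD genes 1 rose and 3 fell in the pancreas, and 1, Selenos, rose and 0 fell in adipose tissue. That was 33.3% called in the pancreas, near the 29.8% of all tested genes. In adipose tissue it was 8.33%, under the 25.1% of all tested genes. Selenos, a selenoprotein that ties Vcp to the retrotranslocation complex, was at 81.5 and 82.96 CPM in control pancreas and 23.7, 22.9 and 26.0 CPM in OA-AP pancreas. In adipose tissue it was at 43.8, 45.1 and 43.3 CPM in the controls and 65.5, 57.8 and 77.3 CPM in OA-AP mice. Its groups did not overlap in either tissue and moved in opposite directions. The log2 fold change was −1.76 ± 0.12 (adjusted p = 0.000102) in the pancreas, −1.06 with library totals alone, and 0.60 ± 0.12 (adjusted p = 0.00753) in adipose tissue. The adipose fold of 1.52 fell under the threshold without OA-AP replicate 3 (0.49).

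Derl3, a channel component of the ERAD pathway enriched in secretory cells, was at 142 and 169 CPM in control pancreas and 38.5, 51.4 and 49.4 CPM in OA-AP pancreas. All OA-AP libraries lay below the controls, and the log2 fold change was −1.74 ± 0.16 (adjusted p = 0.000291), or −1.03 with library totals alone. In adipose tissue Derl3 was near the bottom of the range, at 1.22, 4.24 and 2.86 CPM in the controls and 2.18, 0.817 and 3.43 CPM in OA-AP mice. The highest of these was control replicate 2, the library with acinar RNA, and without it the log2 fold change went from −0.37 to 0.07. Edem3, a mannosidase that marks misfolded glycoproteins, rose in the pancreas from 76.4 and 69.9 CPM to 136, 119.8 and 156 CPM (0.91 ± 0.15, adjusted p = 0.0034). Without control replicate 2 its value was 0.85 (adjusted p = 0.0624). Its relatives Edem1 and Edem2 did not pass, at −0.37 ± 0.13 and −0.20 ± 0.15.

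Vcp (p97), the ATPase that pulls ERAD substrates from the membrane, fell in the pancreas by a margin that sat on the threshold (−0.59 ± 0.12, fold 1.501, adjusted p = 0.00886). Without control replicate 1 its adjusted p was 0.0651, without control replicate 2 it was 0.0966 and without OA-AP replicate 1 it was 0.0572, and with library totals alone its log2 fold change was 0.12. The core ligase pair Sel1l and Syvn1 (Hrd1), and Herpud1 and Os9 that work with it, were not called in either tissue. In the pancreas their log2 fold changes were −0.40 ± 0.16, −0.24 ± 0.23, −0.13 ± 0.21 and 0.29 ± 0.12, and in adipose tissue 0.12 ± 0.10, 0.07 ± 0.12, 0.16 ± 0.13 and 0.01 ± 0.10. Derl1 and Derl2 were likewise not called, at −0.16 ± 0.14 and −0.31 ± 0.15 in the pancreas.

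**Figure D4:**
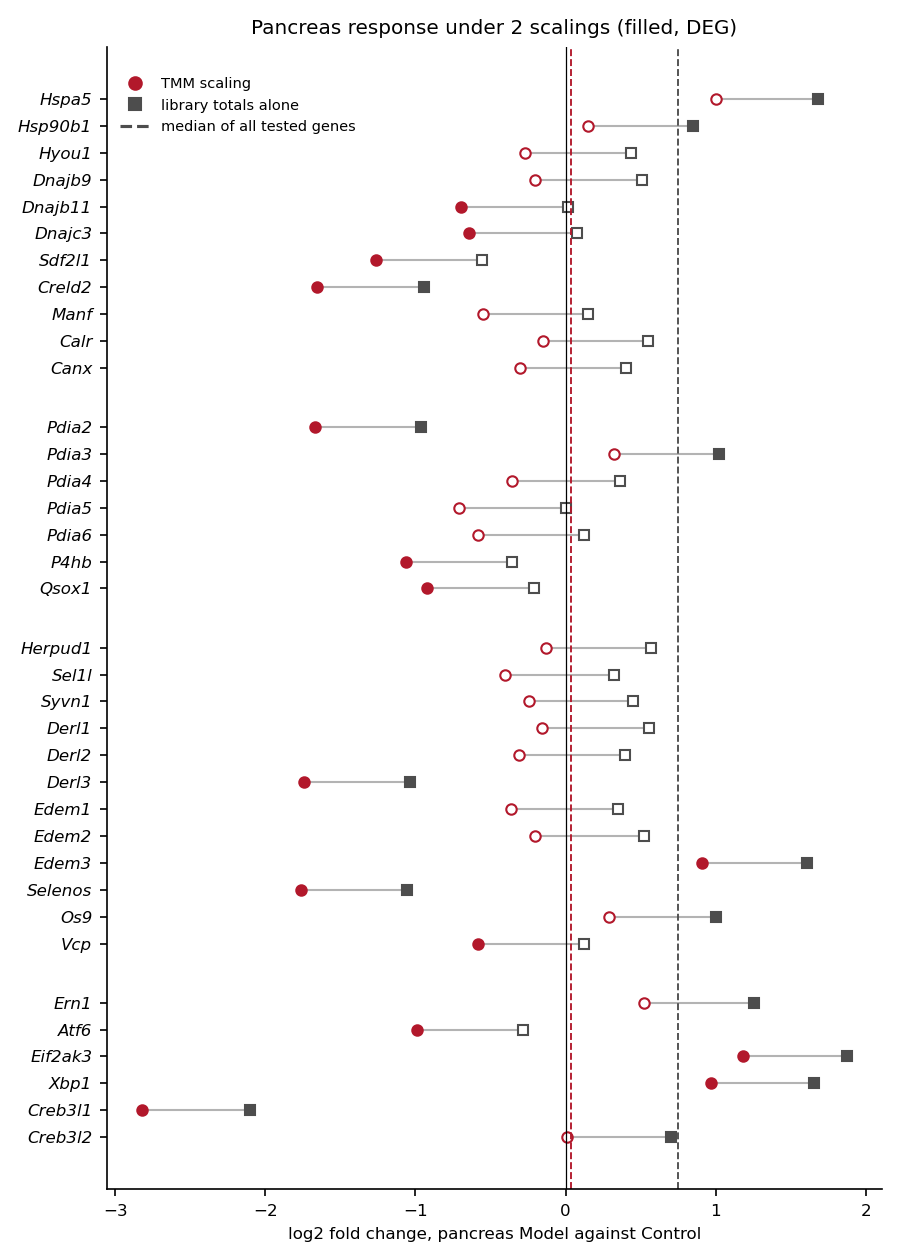
Log2 fold change of each gene in the pancreas with TMM scaling (red circles) and with library totals alone (grey squares), with the medians of all tested genes as dashed lines in the same colours. Filled symbols are DEGs under that scaling; Eif2ak3, Xbp1 and Edem3 are higher and Creb3l1, Derl3, Selenos, Creld2 and Pdia2 lower under both.

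The response was also set beside the promoter elements. The 11 genes with an ERSE or ERSE-II had a median log2 fold change of −0.30 in the pancreas (0 higher, 4 lower) and 0.44 in adipose tissue (4 higher, 0 lower). The 20 matched genes without either had −0.33 (3 higher, 6 lower) and, over 19 tested, 0.36 (8 higher, 0 lower). The 5 genes without a matched promoter had −0.55 (0 higher, 2 lower) and 1.14 (3 higher, 0 lower). Over all tested genes 16.2% were higher and 13.5% lower in the pancreas, and 12.1% and 13% in adipose tissue. Hspa5 and Derl3, whose ERSE sequences are printed above, lay at opposite ends of the pancreas range of the 11 genes. These counts are a description with no test.

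**Figure D5:**
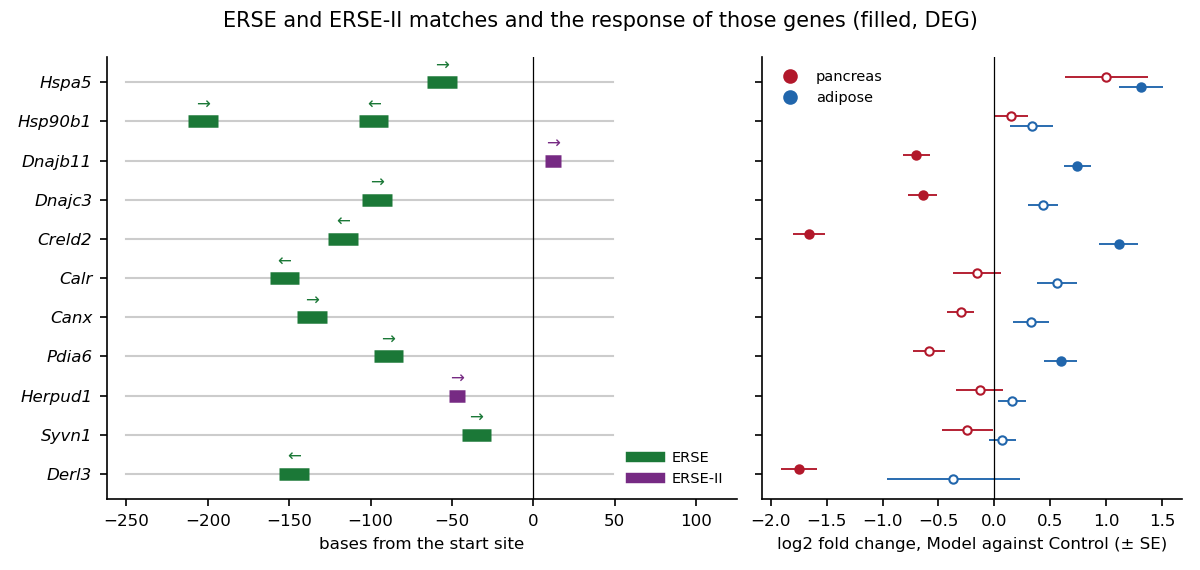
Position of the ERSE and ERSE-II matches in the RefSeq promoters, in bases from the start site with arrows for the orientation (left), beside the log2 fold change (± SE) of the same genes in the pancreas in red and adipose tissue in blue (right). Filled points are DEGs; in the pancreas, on the TMM scale, Dnajb11, Dnajc3, Creld2 and Derl3 are filled and below 0, and Dnajb11 and Dnajc3 lie at 0.02 and 0.07 with library totals alone.

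Whether a response differed between the tissues was tested with the tissue by condition term in all 11 libraries, where a negative value means that the pancreas change was below the adipose change. Of the 36 genes 16 passed (44.4%), 2 positive (Edem3 and Eif2ak3) and 14 negative, where 20.6% of all 17046 tested genes passed (10.2% positive and 10.4% negative, and 33.7% at an unadjusted p under 0.05). The largest difference was that of Creb3l1, −4.93 ± 0.34 on the log2 scale (adjusted p = 1.42e-05). Creld2 followed at −2.75 ± 0.24 (adjusted p = 3.88e-05), then Selenos at −2.35 ± 0.17 (adjusted p = 1.53e-05), Sdf2l1 at −2.35 ± 0.43 (adjusted p = 0.00308), Qsox1 at −2.17 ± 0.15 (adjusted p = 1.42e-05) and Manf at −2.02 ± 0.33 (adjusted p = 0.00165). With library totals alone 8 of the 36 were negative and 6 positive, since all pancreas changes shift upward there. Over all 17046 genes 374 were negative and 6153 positive on that scale. Hspa5 (−0.30 ± 0.43, adjusted p = 0.694) and Xbp1 (−0.81 ± 0.37, adjusted p = 0.146) did not pass, so a difference between the tissues was not shown for them in all 11 libraries. Without pancreas OA-AP replicate 3 the difference of Xbp1 was called (−1.09, adjusted p = 0.0275) and that of Hspa5 was not (−0.76, adjusted p = 0.0779). Leaving out that library also added Dnajb9, Calr, Canx and Creb3l2, for 19 negative calls. Eif2ak3 (0.97 ± 0.27) lost its call without pancreas control replicate 1 (adjusted p = 0.103) or 2 (0.0755), and Edem3 (0.70 ± 0.17) without pancreas control replicate 2 (0.0803).

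By the single-tissue calls, 7 genes were lower in the pancreas and higher in adipose tissue: Dnajb11, Sdf2l1, Creld2, P4hb, Qsox1, Selenos and Creb3l1. That is 20% of the 35 genes tested in both tissues, where 0.81% of all 11977 genes tested in both fell in this class, and with library totals alone it held 2 of the 36, Creld2 and Creb3l1. Xbp1 was higher in both, as were 3.88% of all genes. Of the others, 7 were called in adipose tissue alone (all higher), 6 in the pancreas alone among the genes tested in both tissues (2 higher, 4 lower), and 14 in neither. Over all genes 8.17% were higher in adipose tissue alone, 11.4% higher and 9.9% lower in the pancreas alone, and 55.5% were called in neither. Pdia2 was lower in the pancreas and not tested in adipose tissue.

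Within the pancreas the levels per kb of gene length, on the TMM scale, ranked P4hb first in the controls (378 ± 12.8 CPM per kb, SD, n = 2), then Herpud1 (171 ± 25.1), Xbp1 (123 ± 3.90) and Sel1l (102 ± 8.598). In OA-AP pancreas Xbp1 was first (241 ± 73.7, n = 3), then P4hb (181 ± 18.8), Hspa5 (177 ± 84.5) and Herpud1 (156 ± 39.9), neighbours whose means lay within an SD of one another. In control adipose tissue Calr was first (169 ± 20.8), followed by P4hb (122 ± 9.98), Pdia3 (108 ± 10.9) and Xbp1 (93.2 ± 15.7). In OA-AP adipose tissue the order began with Xbp1 (324 ± 85.7), Calr (249 ± 48.98), Hspa5 (199 ± 48.5) and P4hb (196 ± 35.9). These levels were scaled within each tissue and cannot be compared between the tissues. Of the sensors, Ern1 was at 4.76 ± 0.743 CPM per kb in control pancreas and 3.74 ± 0.248 in control adipose tissue, and Atf6 at 7.57 ± 0.0178 and 7.75 ± 0.252. Eif2ak3 was at 11.9 ± 0.794 CPM per kb in control and 26.9 ± 7.86 in OA-AP pancreas, and at 3.90 ± 0.439 and 4.53 ± 0.410 in control and OA-AP adipose tissue.

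Control pancreas was compared with control adipose tissue in the fit of all 11 libraries. By TMM 28 of the 36 genes were higher in the pancreas and 1, Derl1, was lower (80.6%, where 55.5% of all tested genes passed, 26% higher and 29.4% lower). With library totals alone 12 of the 36 were higher and 12 lower. Over all 17046 tested genes library totals alone gave 1140 higher and 14228 lower. This contrast depends on scaling throughout, since the acinar secretory genes took 80.8% and 82.6% of the control pancreas counts. The median of all genes was −0.22 by TMM and −2.67 with library totals alone. The 12 genes higher in the pancreas on both scales were Hyou1, Sdf2l1, Creld2, Manf, Pdia2, P4hb, Herpud1, Sel1l, Derl3, Edem1, Edem2 and Eif2ak3, and Derl1 was lower on both. Derl3 had the largest log2 difference among those present in both tissues, 7.79 ± 0.53 by TMM, 5.32 with library totals alone and, by TMM, 8.17 without adipose control replicate 2, the library with acinar RNA. On the scale of that fit its level was 325 ± 34.6 CPM in control pancreas (n = 2) and 1.47 ± 0.802 in control adipose tissue (n = 3). Sdf2l1 differed by 5.20 ± 0.34 (2.73 with library totals alone), Edem2 by 4.96 ± 0.16 (2.48), Herpud1 by 4.55 ± 0.22 (2.07) and Sel1l by 4.25 ± 0.18 (1.78). For Hspa5, Xbp1, Ern1 and Atf6 the sign turned with the scale, from 2.12, 2.37, 2.32 and 1.94 by TMM to −0.36, −0.09, −0.16 and −0.53 with library totals alone.

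Markers of other cells moved with the groups. In the pancreas 25 of 43 tested acinar secretory genes fell and 2 rose, and 3 of 5 acinar transcription factors fell with 0 rising. Of the summed marker lists in adipose tissue, the fibroblast list (5 of 7 lower) was at 3359 to 4242 CPM in the controls and 2028 to 2497 CPM in OA-AP mice. The plasma cell list, whose cells also carry a large ER, was at 143 to 726 CPM in the controls and 68.8 to 151 CPM in OA-AP mice, with 4 of 6 genes lower and 1 higher. The 726 CPM was that of control replicate 2, the library with acinar RNA. The other controls were at 284 and 143 CPM, so the groups overlapped. The leukocyte list was at 702 to 857 CPM in the controls and 841 to 1176 CPM in OA-AP mice, with 4 of 10 higher and 2 lower. In the pancreas the plasma cell list was at 20.6 and 29.3 CPM in the controls and 52.0 to 172 CPM in OA-AP mice, of which Sdc1, which epithelia also carry, made 45.2 to 166 CPM, while Tnfrsf17 was at 0 in every library. OA-AP replicate 3 had the highest sum of these, and of the leukocyte list (111 CPM, against 38.4 and 41.8 in the others and 33.9 and 60.9 in the controls). The other lists moved less: in adipose tissue 1 of 7 adipocyte genes rose and 1 fell, and 0 of 5 endothelial genes were called. In the pancreas 1 of 5 ductal and 1 of 6 islet genes rose, 2 of 9 leukocyte genes fell, 1 of 4 plasma cell genes rose and 2 fell, 0 of 7 fibroblast genes were called and 1 of 5 endothelial genes fell, while markers of the epididymal duct were too low to be tested in either tissue. The part of these cells in the values of the 36 genes was not tested.

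Among 80 other genes of ER folding, ERAD and UPR signalling, listed by gene name, 77 were tested in the pancreas, of which 12 rose and 18 fell, and 76 in adipose tissue, of which 12 rose and 3 fell. In the pancreas 15.6% were higher and 23.4% lower, where 16.2% and 13.5% of all genes were. In adipose tissue 15.8% were higher and 3.95% lower, where 12.1% and 13% of all genes were. Both directions together made 19.7% of them there, against 25.1% of all genes. In the pancreas the falls were mostly in the folding list, where 13 of 32 fell and 1 rose, and the rises in the ERAD list, where 8 of 26 rose and 3 fell. The 12 pancreas rises became 5 without control replicate 1 and 2 without control replicate 2, and the 3 adipose falls became 1 without control replicate 2, control replicate 3 or OA-AP replicate 1 and 0 without OA-AP replicate 3. Scaling by library totals alone gave pancreas counts of 42 higher and 7 lower, and 6 higher in adipose tissue. Over all genes the same scaling gave 5843 higher and 506 lower of 12884 in the pancreas, and 1365 higher of 15839 in adipose tissue. The lower pancreas genes with the smallest p were Fkbp11 (−2.77 ± 0.19, adjusted p = 9.63e-05), Fkbp2 (−2.16 ± 0.16), Prdx4 (−1.58 ± 0.14) and Ppib (−1.27 ± 0.13), which are prolyl isomerases of the ER and, in Prdx4, a peroxiredoxin that feeds disulfide formation. The higher ones were Tmub1 (1.23 ± 0.19), Creb3 (0.93 ± 0.16), Eif2s1 (0.83 ± 0.15) and Nploc4 (0.96 ± 0.18), the last a cofactor of Vcp. In adipose tissue the higher genes with the smallest p were Eif2s1 (1.14 ± 0.10, adjusted p = 0.000653), the substrate of Eif2ak3, Ppp1r15a (0.87 ± 0.09), which reverses its phosphorylation, Ube2j2 (0.65 ± 0.08) and Mogs (1.11 ± 0.15). The 3 lower were Svip (−0.98 ± 0.22), an inhibitor of Vcp-dependent ERAD, Ero1lb (−0.73 ± 0.19), an oxidase of the isomerases, and Trib3 (−1.52 ± 0.39).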

How the data were processed

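The deposited files hold raw counts per gene, which the authors made from paired reads of 150 bases. Per the labels and the study's methods, reads were trimmed (Trim Galore 0.6.6, fastp 0.20.1), aligned with STAR to GRCm38 and counted with featureCounts 2.0.1. The annotation release and the strand setting are not given in the sources used here, so reads of overlapping and antisense genes cannot be separated.

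The counts were fitted per tissue in edgeR 4.0.16 (R 4.3.3) after filterByExpr and TMM scaling, with the robust quasi-likelihood test and Benjamini-Hochberg adjustment over all tested genes. A DEG had an adjusted p under 0.05 and a fold of at least 1.5. The SE is the log2 fold change divided by the root of the F statistic. A fit of all 11 libraries gave the tissue by condition term and the contrast of the control tissues. CPM used TMM-scaled library sizes, and CPM per kb divided by the gene length in the files. The scripts were tested on simulated data.

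The 36 genes, the other gene lists and the tests were chosen with earlier results of these data known. Values per library are given for Hspa5, Xbp1, Ern1, Atf6, Eif2ak3 and, per role and tissue, the 3 DEGs with the smallest p; a few more were named after their values were seen. Of the 80 other pathway genes, the 4 DEGs with the smallest p per direction and tissue are named, and 1 listed symbol, March6, was not found. Alternatives were other scalings, filters and thresholds, DESeq2 1.42.0, a replicate block and leaving out each library. Same-numbered samples were checked for deviating together. Protein sequences were not analysed here.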

Additional observations from a re-analysis of the deposited data

Results flagged for a closer look

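For 16 of the 36 genes the change differed between the tissues by the tissue by condition term of the fit of all 11 libraries (edgeR's quasi-likelihood test, adjusted over all tested genes). The values are log2 fold changes in the pancreas minus those in adipose tissue, so a negative value means a lower response in the pancreas. Among the chaperones the difference was −1.40 for Hyou1, −1.43 for Dnajb11, −1.07 for Dnajc3, −2.35 for Sdf2l1, −2.75 for Creld2 and −2.02 for Manf. Among the disulfide enzymes it was −1.50 for Pdia5, −1.16 for Pdia6, −1.73 for P4hb and −2.17 for Qsox1. Among the ERAD genes it was 0.70 for Edem3, −2.35 for Selenos and −0.94 for Vcp. Among the sensors and transcription factors it was −1.55 for Atf6, 0.97 for Eif2ak3 and −4.93 for Creb3l1. With library totals alone the differences of Sdf2l1, Creld2, Manf, P4hb, Qsox1, Selenos, Atf6 and Creb3l1 were still called negative and those of Edem3 and Eif2ak3 positive. Without pancreas OA-AP replicate 3, the library that stood apart, all 16 were still called, together with Dnajb9 (−1.06), Calr (−0.94), Canx (−0.65), Xbp1 (−1.09) and Creb3l2 (−1.01).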

How the results depend on the processing

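The pancreas results depended most on scaling. Library totals alone gave for the 36 genes 9 higher and 5 lower, and a median of 0.38. Among the other pathway genes 42 were higher and 7 lower, and over all 12884 genes 5843 were higher and 506 lower. The sign turned for Hyou1 (0.43), Dnajb9 (0.51), Dnajb11 (0.0168), Dnajc3 (0.0742), Manf (0.15), Calr (0.55), Canx (0.41), Pdia4 (0.36), Pdia5 (0.000602), Pdia6 (0.12), Herpud1 (0.57), Sel1l (0.32), Syvn1 (0.45), Derl1 (0.55), Derl2 (0.40), Edem1 (0.35), Edem2 (0.52) and Vcp (0.12). Creb3l2 lay at −0.0205 with DESeq2 size factors and −0.0420 with TMM without acinar genes. In adipose tissue library totals alone gave 10 higher of the 36, 6 higher of the other genes, and Sel1l −0.0299, Syvn1 −0.0800 and Os9 −0.14, and Os9 was at −0.0151 without a filter and −0.00958 with at least 10 counts in every library. The tissue by condition term gave a median of 0.0748 and 6 positive and 8 negative calls, beside 6153 and 374 over all genes. The control tissues gave 12 higher and 12 lower, beside 1140 and 14228 over all genes. There the median of the 36 genes was −0.21, with Hspa5 at −0.36, Xbp1 at −0.0931, Ern1 at −0.16 and Atf6 at −0.53. The distance of the members' median from that of all genes kept its value, as given above, and beyond this scaling effect the cause was not tested.

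With at least 10 counts in every library the median of the control tissues was 2.07. Without a filter 5 of the 36 genes were higher in the pancreas, beside 2673 of all 23572 genes. At a fold of 2 the pancreas gave 1 higher and 7 lower, 8 in all, with 2 of the other genes higher, adipose tissue gave 8 higher, with 3 higher and 1 lower of the others, the term gave 0 positive and the control tissues 0 lower. With no fold threshold 31 of the other genes were higher in adipose tissue, and 2 of the 36 were lower in control pancreas. The shares of all genes at these changed fold thresholds are not given here, so these counts cannot be read against them.

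Leaving out each library in turn gave 0 to 4 higher and 9 to 15 lower in the pancreas (9 to 19 called, median −0.45 to −0.29), 9 to 16 higher and 0 lower in adipose tissue, 0 to 2 positive and 14 to 19 negative for the term (14 to 21 called, median −0.96 to −0.53), and 27 to 28 higher and 1 lower between the control tissues. The other genes gave 2 to 14 higher and 13 to 20 lower in the pancreas and 8 to 13 higher and 0 to 3 lower in adipose tissue. The calls over all genes moved in both tissues as well, as given above for several of these fits. Where 1 control remained, it was assumed to vary like the other group. Signs turned for values near 0, in the pancreas for Dnajb9 (−0.446 to 0.0977), Herpud1 (−0.409 to 0.0273), Creb3l2 (−0.207 to 0.129) and Hsp90b1 (−0.0238 to 0.208), and in adipose tissue for Os9 (−0.0357 to 0.0530), Derl3 (−0.884 to 0.0662), Edem1 (−0.165 to 0.138) and Syvn1 (−0.00794 to 0.172).

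Deviations of same-numbered samples correlated at −0.16 to 0.09, and those of differently numbered samples at −0.25 to 0.29. With so few samples per group this check can neither show nor exclude a pairing. With the replicate number as a block the calls were 4 higher and 14 lower in the pancreas, where Creb3l2 was at −0.16, 15 and 0 in adipose tissue, 1 and 15 for the term and 28 and 1 between the control tissues. The pancreas comparison had 2 control libraries.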
